A study of Mus musculus with 12 samples.

Results

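Glutathione S-transferases were followed in the livers of mice kept on 4 diets. The 9 genes Gsta2, Gsta3, Gsta4, Gstm1, Gstm2, Gstm3, Gstp1, Gstt1 and Gstz1 were chosen by name, and every array probe whose accession belongs to 1 of these symbols was taken. This gave 15 probes of the 39429 on the array, with 3 probes for Gstm2, 2 each for Gsta3, Gstm1, Gstm3 and Gstp1, and 1 each for Gsta2, Gsta4, Gstt1 and Gstz1. Where a gene had several probes, the brightest stood for the gene and the others were read beside it.

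The series measured liver RNA of 12 female C57BL/6N mice on 1-colour Agilent arrays, 3 mice in each of 4 groups. The mice were bought at 6 weeks of age, were given 2 weeks to settle, and were killed after 6 months of diet. Ctrl mice ate a normal formula diet (NFD) with corn starch and sucrose as its carbohydrate, and RS mice ate the same diet with resveratrol, a plant polyphenol, added to it. In the DJ diet Dongjin rice took the place of the starch and sucrose, and in the DJ526 diet that place was taken by DJ526, a Dongjin rice carrying a gene for resveratrol synthesis. All 12 mice were of this 1 strain, no engineered allele is named for any group, and the labels give no dose of resveratrol. DJ526 is a single rice line, and the DJ526 diet differs from the RS diet in both the carbohydrate and the source of resveratrol. The labels treat each array as 1 mouse, and they do not say which mice shared a cage. The paper states that several mice lived in a cage and that cages were randomly assigned to the groups. Mice of 1 diet may therefore have shared a cage, and cage cannot be told apart from diet.

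Glutathione S-transferases join the tripeptide glutathione to electrophilic compounds, which makes these easier to export and break down. The cytosolic enzymes fall into classes named by Greek letters, and the liver is the organ best known for them. Many genes of the alpha, mu and pi classes are textbook targets of Nrf2, the factor that answers oxidative and electrophilic stress, and of the xenobiotic receptors CAR, PXR and AhR. The zeta enzyme differs from the others in that its main known task is a step of tyrosine breakdown.

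The sequences just before the start of 5 of the genes are shown. Of these, 3 are the mu class genes Gstm1, Gstm2 and Gstm3, where Gstm3 varied with each of the others from mouse to mouse. The other 2 genes hold the letters of an element for which this family is known. The sequences were taken from RefSeq promoters on build GRCm38.p6, where 8 of the 9 genes have an entry. Each line gives the 150 bases before the start, 5′ to 3′ on the gene's own strand. Capitals mark the core of the antioxidant response element (TGACNNNGC) in Gsta3, the TATA box (TATAAA) in Gstm1 and the AP-1 site (TGAGTCA) in Gstp1.
Gsta3, chr1:21240435-21240584, plus strand: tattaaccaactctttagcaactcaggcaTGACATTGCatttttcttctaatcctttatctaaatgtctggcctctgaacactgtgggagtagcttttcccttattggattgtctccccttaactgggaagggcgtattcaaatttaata
Gstm1, chr3:108017819-108017968, minus strand: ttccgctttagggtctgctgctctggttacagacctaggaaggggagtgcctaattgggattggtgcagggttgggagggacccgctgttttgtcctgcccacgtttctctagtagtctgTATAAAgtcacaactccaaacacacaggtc
Gstm2, chr3:107986421-107986570, minus strand: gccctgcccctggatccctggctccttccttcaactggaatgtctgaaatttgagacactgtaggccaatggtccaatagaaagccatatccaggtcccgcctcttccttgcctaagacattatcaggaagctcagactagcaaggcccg
Gstm3, chr3:107969175-107969324, minus strand: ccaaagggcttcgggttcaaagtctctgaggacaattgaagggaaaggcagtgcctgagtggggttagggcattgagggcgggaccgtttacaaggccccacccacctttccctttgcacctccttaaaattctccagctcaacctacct
Gstp1, chr19:4037913-4038062, minus strand: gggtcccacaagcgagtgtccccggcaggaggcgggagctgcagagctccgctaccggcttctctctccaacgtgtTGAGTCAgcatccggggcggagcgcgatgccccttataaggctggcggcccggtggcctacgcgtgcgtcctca

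In windows of 300 bases (250 before and 50 after each start), searched on both strands, TGACNNNGC was present in 12.4% of 32851 promoters and among these genes in Gsta3 alone, from -121 to -113. The letters TGAGTCA, whose reverse strand can overlap the first motif, were present in 5.2% of promoters and here in Gstp1 alone, from -74 to -68. The core of the AhR site, GCGTG, was present in 32.4% of promoters and in those of Gsta2, Gstm1 and Gstp1. The TATA box letters were present in 13.6% of promoters and in those of Gsta2 and Gstm1. In Gstm1 they stood from -30 to -25 of the entry printed above, and another Gstm1 entry lacked them. In Gsta2 they stood from -246 to -241, on the reverse strand. Gstm2 and Gstm3 held none of these letters in their windows. By gene order in the same build, Gstm3, Gstm2, Gstm1 and Gstm4 stand side by side, Gstp1 stands beside Gstp2, and Gstt1 stands between Gstt3 and Gstt4.

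Between 73.0% and 80.8% of the spots were well above background on each array, and 0 spots were saturated. All 15 transferase probes were well above background on all 12 arrays. The arrays lay on 3 slides of 4 arrays each. Slide 1 held the 3 Ctrl mice and DJ mouse 1, slide 2 held DJ mice 2 and 3 with RS mice 1 and 2, and slide 3 held RS mouse 3 with the 3 DJ526 mice, so diet and slide went largely together. Sums over 6 hepatocyte marker genes (log2 scale) covered 10.58 to 10.64 in the Ctrl mice and 10.61 to 10.78 in the RS mice. They covered 10.69 to 10.82 in the DJ mice and 10.54 to 10.65 in the DJ526 mice. The DJ mice thus lay above all Ctrl and all DJ526 mice, and its part in the transferase values was not tested. Of 4 pancreas markers, 0 were well above background on all arrays. A supplementary sample table of the study gives RS the array identifiers that the labels give DJ, and the reverse, and the labels were followed here.

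Signal is given throughout as log2 of the processed spot intensity minus the 75th percentile of that array, so 1 unit is a doubling and values are compared within a probe only. The tests were limma fits over all 39429 probes with Benjamini-Hochberg adjustment, and a probe was called at an adjusted p under 0.05. Across 8 comparisons of the diets, 0 of the 15 transferase probes were called in any. Over the whole array the same fits called 0% of probes in RS against Ctrl and in DJ against Ctrl, 0.00507% (2 probes) in DJ526 against Ctrl, 0.0101% (4 probes) in DJ526 against DJ and 0.00761% (3 probes) in DJ526 against RS. Without RS mouse 3 the last 3 of these counts were 173, 107 and 28 probes, with 0 of the 15 transferase probes among them. In rice against starch and sucrose, in resveratrol against none and in the difference between the resveratrol effects on rice and on starch, they called 0%. In a whole liver, fewer cells of a type and less RNA per cell cannot be told apart.

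The alpha class held Gsta2 and Gsta4, for which DJ mouse 3 stood far below its group. Gsta2 encodes an inducible alpha enzyme that also acts on lipid peroxides. Its signal was 2.86, 2.24 and 1.69 in the Ctrl mice and 4.02, 2.17 and 3.00 in the RS mice. In the DJ mice it was 3.29, 2.77 and 0.71, and in the DJ526 mice 2.96, 3.27 and 3.13. RS mouse 1 was the highest and DJ mouse 3 the lowest of all, and the DJ526 mice lay close together above all 3 Ctrl mice. The SD within groups, pooled over the diets, was 0.88, a larger value than in 98.6% of the 27271 probes well above background on all arrays, where the median SD was 0.19.

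Gsta2 means were 2.26 ± 1.37 (SD, n = 3) in DJ, 2.27 ± 0.58 in Ctrl, 3.07 ± 0.93 in RS and 3.12 ± 0.16 in DJ526, and no neighbours in this order differed beyond their spread. DJ526 exceeded Ctrl by 0.86 (SE 0.61, 95% interval -0.50 to 2.21, limma adjusted p = 0.639). RS exceeded Ctrl by 0.80 (SE 0.61, interval -0.55 to 2.15, adjusted p = 0.943). Both comparisons use the same Ctrl mice. DJ526 against DJ gave 0.87 with DJ mouse 3 and 0.09 without it. These intervals include 0 and also include rises of more than 4-fold.

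Gsta3, the abundant alpha enzyme of mouse liver known for disarming aflatoxin, had a signal of 8.07, 8.05 and 7.94 in the Ctrl mice and 8.13, 8.14 and 8.13 in the RS mice. It was 8.40, 8.12 and 7.85 in the DJ mice and 8.01, 8.10 and 8.20 in the DJ526 mice. The 3 RS mice were nearly equal and lay above all Ctrl mice, while the DJ mice covered the whole range seen in the study. RS against Ctrl differed by 0.11 (SE 0.12, interval -0.14 to 0.37, adjusted p = 0.973), and the other probe for the gene gave 0.09 (SE 0.10). The 2 probes correlated at 0.91 over the 12 arrays. DJ526 against RS was -0.03 (interval -0.28 to 0.22, adjusted p = 0.993).

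Gsta4 encodes the alpha enzyme specialised in lipid aldehydes such as hydroxynonenal. Its probe, printed at 10 spots per array, gave 0.98, 0.96 and 0.97 in the Ctrl mice and 1.22, 0.93 and 1.23 in the RS mice. The DJ mice gave 0.91, 0.76 and -0.43, and the DJ526 mice 1.13, 1.22 and 1.33. The DJ mice were the 3 lowest of the 12, the DJ526 mice lay above every Ctrl and DJ mouse, and RS mouse 2 alone kept the RS and Ctrl ranges from separating.

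The means of Gsta4 were 0.41 ± 0.73 in DJ, 0.97 ± 0.01 in Ctrl, 1.13 ± 0.17 in RS and 1.23 ± 0.10 in DJ526 (SD, n = 3 each). DJ526 against DJ differed by 0.82 (SE 0.27, 95% interval 0.22 to 1.41, 1.76-fold), with an unadjusted limma p of 0.012 and an adjusted p of 0.405. This was the smallest adjusted p of any of the 15 probes of the chosen genes in any comparison. Without DJ mouse 3 the difference was 0.39, and with the RS and DJ arrays exchanged it was 0.10. DJ against Ctrl gave -0.56 (SE 0.27, interval -1.15 to 0.04, adjusted p = 0.960), which became -0.14 without DJ mouse 3. The resveratrol diets together exceeded the others by 0.49 (SE 0.19, unadjusted p = 0.027, adjusted p = 0.449).

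DJ mouse 3 had the lowest signal of all 12 mice for Gsta2, Gsta3 and Gsta4, and also for Gstt1. In the plot of signal by mouse its triangle is the lowest point in these 4 panels. For Gsta3, DJ mouse 1 (8.40) stood about as far above DJ mouse 2 (8.12) as DJ mouse 3 (7.85) stood below it.

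**Figure D1:**
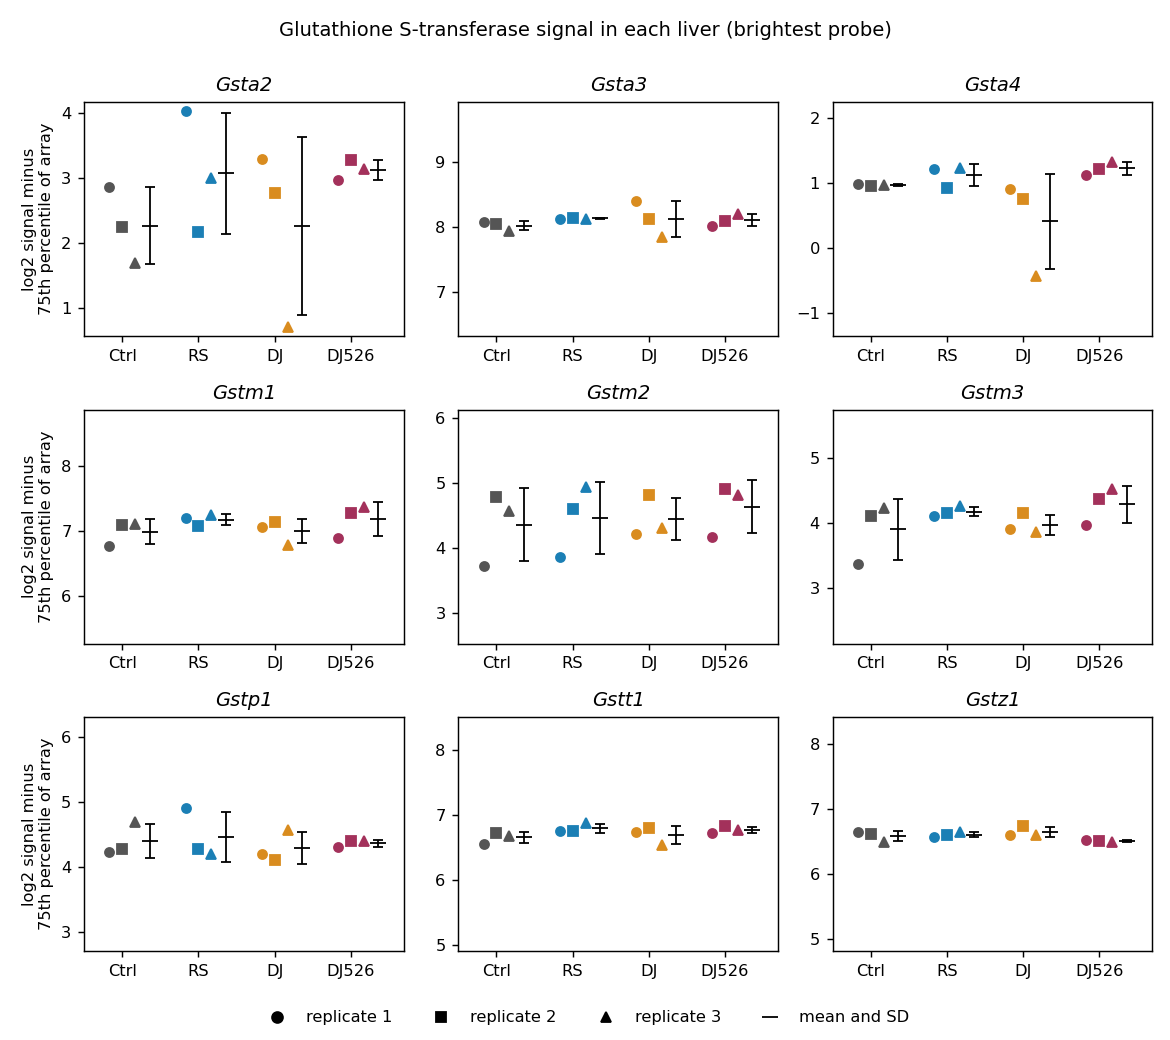
Each panel plots 1 gene's signal (log2 intensity minus the array's 75th percentile, brightest probe) in every mouse by diet, with circles, squares and triangles for replicates 1, 2 and 3 and a bar for the group mean and SD. Gsta2 spreads from 0.71 to 4.02, DJ mouse 3 stands at -0.43 for Gsta4, and Gstz1 stays between 6.49 and 6.73.

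The mu class members showed little difference between diets and a difference between mice that Gstm3 shared with Gstm1 and with Gstm2. Gstm1, the main constitutive mu enzyme of mouse liver, had a signal of 6.77, 7.10 and 7.12 in the Ctrl mice and 7.20, 7.09 and 7.25 in the RS mice. The DJ mice had 7.07, 7.14 and 6.79, and the DJ526 mice 6.90, 7.29 and 7.38. All 4 groups overlapped, with Ctrl mouse 1 lowest and DJ526 mouse 3 highest. Ctrl and DJ had the same mean, and RS (7.18) and DJ526 (7.19) stood together above them by about the SD of a group. The DJ526 difference from Ctrl was 0.19 (SE 0.14, interval -0.12 to 0.50, adjusted p = 0.647).

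The dimmer Gstm1 probe followed the brighter at a correlation of 0.945. Beside the Gsta4 probe, it alone among the 15 probes of the chosen genes gave an unadjusted p under 0.05. DJ526 against DJ was 0.33 (SE 0.13, interval 0.04 to 0.63, unadjusted p = 0.030, limma adjusted p = 0.473), against 0.19 on the brighter probe. Resveratrol against none was 0.24 on it (SE 0.09, unadjusted p = 0.029, adjusted p = 0.451), against 0.19 on the brighter probe. Its DJ526 mice read 5.39, 5.70 and 5.88 and its DJ mice 5.37, 5.42 and 5.17, so that the groups overlapped.

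Gstm2, another mu enzyme, gave 3.72, 4.78 and 4.56 in the Ctrl mice and 3.85, 4.59 and 4.93 in the RS mice. It gave 4.21, 4.81 and 4.31 in the DJ mice and 4.16, 4.91 and 4.81 in the DJ526 mice. Mouse 1 was the lowest of its group in all 4 groups, and each group spanned much of the range of the others. Group means ran from 4.35 ± 0.56 in Ctrl through 4.44 ± 0.32 in DJ and 4.46 ± 0.55 in RS to 4.63 ± 0.41 in DJ526, steps that are all smaller than the SD. DJ526 against Ctrl was 0.27 (SE 0.33, interval -0.45 to 1.00, adjusted p = 0.799) and turned to -0.04 without Ctrl mouse 1. The 3 Gstm2 probes correlated with each other at 0.962 to 0.997.

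Gstm3, a mu enzyme known to be inducible in mouse liver, gave 3.37, 4.10 and 4.23 in the Ctrl mice and 4.11, 4.16 and 4.26 in the RS mice. It gave 3.91, 4.15 and 3.86 in the DJ mice and 3.97, 4.37 and 4.52 in the DJ526 mice. Ctrl mouse 1 was far below the other 11, and every group overlapped every other. DJ526 exceeded Ctrl by 0.39 (SE 0.21, interval -0.07 to 0.84, adjusted p = 0.527) and by 0.12 without Ctrl mouse 1. The dimmer probe gave 0.37 (SE 0.38) for the same comparison and followed the brighter at 0.861, the weakest match between probes of 1 gene here.

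Over the 12 mice, Gstm1 and Gstm3 correlated at Pearson's r = 0.894 (permutation p = 1e-05, the smallest that 100000 permutations can give, adjusted p = 0.00036 over 36 pairs of genes) and Spearman's rho = 0.909 (permutation p = 9e-05, adjusted p = 0.00324). Without Ctrl mouse 1 and DJ mouse 3, the 2 farthest from the median of Gstm1, r was 0.871. Gstm2 and Gstm3 correlated at r = 0.786 (permutation p = 0.00108, adjusted p = 0.0172) and rho = 0.797 (permutation p = 0.00287, adjusted p = 0.0444). For that pair r was 0.805 without Ctrl mouse 1 and RS mouse 1, the 2 farthest from the median of Gstm2. After each group's mean was subtracted, the values of r were 0.868 and 0.819, and after each slide's mean was subtracted they were 0.878 and 0.744. A slide held too few arrays for a value of its own. The pair Gstm1 and Gstm2 gave r = 0.655 (adjusted p = 0.0810) and did not pass.

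**Figure D2:**
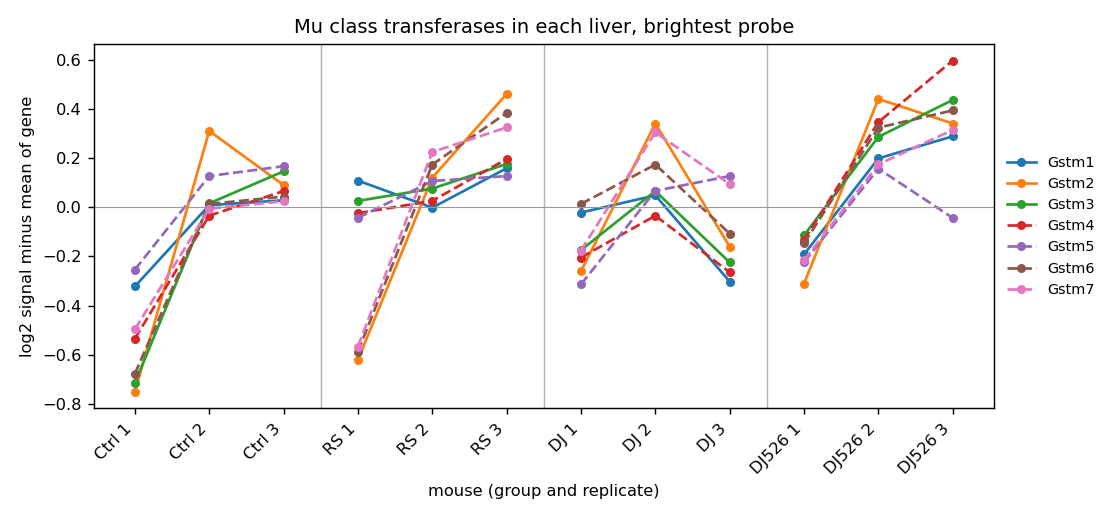
Signal of 7 mu class genes in each mouse, as the difference from the gene's mean over the 12 mice (log2 units, brightest probe), with solid lines for Gstm1, Gstm2 and Gstm3, dashed lines for their relatives and thin vertical lines between groups. All 7 genes are below their means in Ctrl mouse 1 and DJ526 mouse 1, and Gstm1, Gstm2, Gstm3, Gstm4, Gstm6 and Gstm7 are above theirs in DJ526 mice 2 and 3.

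Of the other mu class genes, some followed these genes closely and others did not. The gene most like Gstm3 among 15543 named genes outside the 9 was Gstm4, at r = 0.952 over the 12 mice, and Gstm4 was also the most like Gstm1, at 0.904. Gstm4 read 1.94, 2.44 and 2.54 in the Ctrl mice and 2.34, 2.82 and 3.07 in the DJ526 mice. Gstm2 was closer to Gstm6 (0.936) and Gstm7 (0.919) than to Gstm4 (0.740). Gstm5 and Gstm7 followed Gstm1 less closely, at 0.377 and 0.477, and Gstm5 was at 0.572 with Gstm3. Close relations were not limited to the mu class. The theta gene Gstt3 correlated at 0.909 with Gstm2, 0.835 with Gstm3 and 0.729 with Gstm1. For the pi gene Gstp3 these values were 0.843, 0.564 and 0.507. Probe sequences were not used here, so signal that a probe may take from a close relative on the array could not be separated from that of its own gene, for the mu, pi and alpha genes alike.

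The pi class gene Gstp1, whose enzyme also binds the stress kinase JNK, gave 4.22, 4.28 and 4.69 in the Ctrl mice and 4.90, 4.27 and 4.20 in the RS mice. It gave 4.19, 4.10 and 4.56 in the DJ mice and 4.30, 4.39 and 4.39 in the DJ526 mice. The ranges of the 4 groups overlapped, with the DJ526 mice the closest together and RS mouse 1 and Ctrl mouse 3 the highest. Means were 4.28 ± 0.24 in DJ, 4.36 ± 0.05 in DJ526, 4.40 ± 0.26 in Ctrl and 4.46 ± 0.38 in RS, and no neighbours differed beyond their spread. DJ against Ctrl differed by -0.11 (SE 0.19, interval -0.53 to 0.30, adjusted p = 1.00). The other Gstp1 probe followed at 0.994, and the most similar gene outside the 9 was its neighbour Gstp2 at 0.963.

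Gstt1, the theta enzyme known for acting on small halogenated compounds, gave 6.56, 6.73 and 6.69 in the Ctrl mice and 6.76, 6.76 and 6.88 in the RS mice. It gave 6.74, 6.81 and 6.54 in the DJ mice and 6.73, 6.83 and 6.77 in the DJ526 mice. All RS and all DJ526 mice lay above all Ctrl mice, by a narrow margin for DJ526, while the DJ mice lay on both sides. RS exceeded Ctrl by 0.14 (SE 0.08, interval -0.04 to 0.32, 1.10-fold, adjusted p = 0.912), and DJ526 exceeded the same Ctrl mice by 0.12 (SE 0.08, interval -0.07 to 0.30, adjusted p = 0.637). With slide as a block these values were 0.16 and 0.06.

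Across mice, Gstt1 passed with Gstm1 by both measures of correlation, with Gstm3 by r alone and with Gstm2 by neither (r = 0.645, adjusted permutation p = 0.0810). Its r with Gstm1 was 0.832 (permutation p = 0.00143, adjusted p = 0.0172) and rho 0.790 (permutation p = 0.00370, adjusted p = 0.0444), but r was 0.517 without Ctrl mouse 1 and DJ mouse 3, so the relation rests in large part on those mice. It was 0.777 after group means and 0.786 after slide means were subtracted. With Gstm3 it gave r = 0.742 (permutation p = 0.00655, adjusted p = 0.0472) and rho = 0.748 (adjusted permutation p = 0.0584). That r was 0.654 after group means and 0.639 after slide means were subtracted. It was 0.718 without Ctrl mouse 1 and DJ526 mouse 3, the 2 farthest from the median of Gstm3. DJ mouse 3, the lowest for Gstt1, was kept there, so its part in that relation was not tested. The pooled SD of Gstt1, 0.09, was larger than in only 12.4% of the probes well above background on all arrays.

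Gstz1, the isomerase for maleylacetoacetate in tyrosine breakdown, was the steadiest of the 9. It gave 6.64, 6.62 and 6.49 in the Ctrl mice and 6.56, 6.60 and 6.64 in the RS mice. It gave 6.60, 6.73 and 6.60 in the DJ mice and 6.52, 6.51 and 6.49 in the DJ526 mice. The DJ526 mice lay below all RS and all DJ mice, while Ctrl mouse 3 lay among them. Its pooled SD of 0.06 was larger than in 2.08% of the probes.

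Gstz1 means ran in the order DJ526 (6.50 ± 0.02), Ctrl (6.58 ± 0.08), RS (6.60 ± 0.04) and DJ (6.64 ± 0.08). DJ526 against DJ was -0.14 (SE 0.06, interval -0.28 to 0.00, 0.91-fold, unadjusted p = 0.053, adjusted p = 0.516), and DJ526 against RS was -0.10 (SE 0.06, interval -0.24 to 0.04, adjusted p = 0.986). RS against Ctrl was 0.02 with an interval of -0.12 to 0.16, and the Gstz1 intervals were the narrowest of the 9 genes. Tat, Hpd, Hgd and Fah, which also act in tyrosine breakdown, gave 0 calls as well. Fah, whose enzyme acts directly after Gstz1, was 0.20 higher in RS than in Ctrl (SE 0.08, unadjusted p = 0.037, adjusted p = 0.802).

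**Figure D3:**
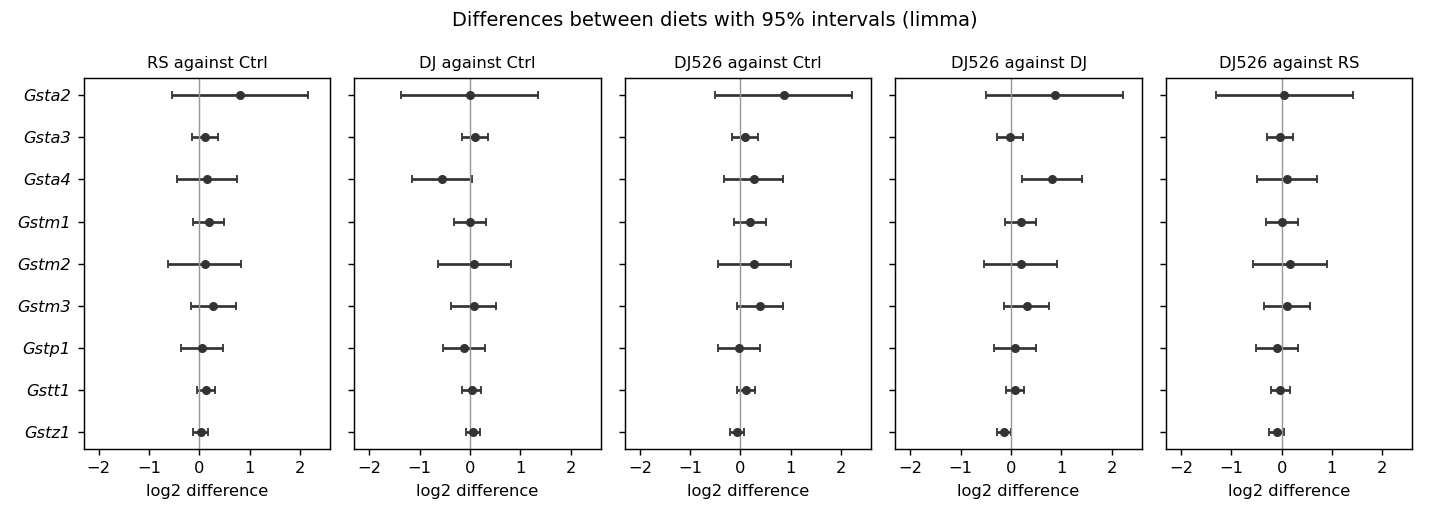
Differences in log2 signal between diets for the brightest probe of each gene, 1 panel per comparison of 2 groups, with points for limma estimates and bars for 95% intervals. The interval excludes 0 for Gsta4 in DJ526 against DJ alone (0.22 to 1.41), and the intervals of Gsta2 are the widest.

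Read by comparison, RS against Ctrl had positive differences for all 9 genes, of which 6 (Gsta2, Gsta3, Gsta4, Gstm1, Gstm3 and Gstt1) kept that sign under every alternative run with the labels as given. Gstp1 and Gstz1 were at -0.01 and -0.05 under array median scaling, Gstz1 was at -0.17 with normexp, Gstm2 was at -0.21 without Ctrl mouse 1 and at -0.48 with slide as a block, and Gstp1 was at -0.16 without RS mouse 1. The median was 0.14 against 0.03 over all probes. In single probes 14 of 15 were above 0, where 56.7% of all probes were. Gsta3 (both probes) and Gstt1 did not overlap between the groups, which is 3 of 15 probes against 10.2% of all probes, and 0 of 15 had an unadjusted p under 0.05 against 6% of all probes.

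DJ against Ctrl had a median of 0.03 over the 9 genes, with 6 above 0 (Gstm1 turned to -0.07 under quantile normalization and Gsta2 to 0.01 under array median scaling), and -0.02 over all probes, of which 46.6% were above 0. With the labels as given, 8 of the 9 genes changed sign under some alternative, all but Gsta4. Gsta4 alone did not overlap, with the DJ mice lower, which is 1 of 15 probes against 9.34% of all probes. Unadjusted p was under 0.05 for 0 of 15 probes against 5.22% of the array. DJ526 against Ctrl had a median of 0.19 over the genes, with 7 above 0 (8 under quantile normalization, where Gstp1 was 0.01), and 0.02 over all probes, of which 53.3% were above 0. Gstm2 and Gstp1 changed sign under some alternative, and with slide as a block they were at -0.78 and 0.21. Gsta2, Gsta4 and Gstt1 did not overlap and were higher in DJ526, which is 3 of 15 probes against 20.6% of all probes, and 0 of 15 had an unadjusted p under 0.05 against 10.8%. These comparisons and RS against Ctrl share the Ctrl mice and are not independent of each other.

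DJ526 against DJ, the comparison of the resveratrol rice with its parent, had a median of 0.19 over the genes, with 7 above 0 (Gstp1 and Gstt1 were each at -0.01 under array median scaling, and Gsta3 at 0.08 under quantile normalization), and 0.04 over all probes, of which 56.2% were above 0. Only Gsta2, Gsta4, Gstm1, Gstm3 and Gstz1 kept their sign under every alternative with the labels as given. Gsta4 was higher and Gstz1 lower without overlap, which is 2 of 15 probes against 18.4% of all probes. Unadjusted p was under 0.05 for 2 of 15 probes (Gsta4 and the dimmer Gstm1 probe) against 9.81% of all probes. DJ526 against RS had a median of 0.01, with 5 genes above 0 (Gstt1 was at 0.00 in the deposited table), as were 49.4% of all probes. All 9 genes changed sign under some alternative with the labels as given. Gstz1 did not overlap there, which is 1 of 15 probes against 11.1%, and 0 of 15 had an unadjusted p under 0.05 against 5.5%.

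With the groups joined, rice against starch and sucrose had differences from -0.23 (Gsta4) to 0.13 (Gstm2), with 6 genes above 0 (Gstm1 turned to -0.02 under quantile normalization), as were 46.7% of all probes. It had 0 of 15 probes with an unadjusted p under 0.05, against 4.57% of all probes, and 0 without overlap, against 0.119%. Only Gsta4 and Gstz1 kept their sign under every alternative with the labels as given. Resveratrol against none was above 0 for 8 of 9 genes (Gsta3 and Gstp1 turned to -0.03 and -0.01 under array median scaling), with a median of 0.15 against 0.03 over all probes, of which 57.9% were above 0. In it 2 of 15 probes had an unadjusted p under 0.05, against 10.1% of all probes, and 0 were without overlap, against 0.554%. Gsta3, Gstm2 and Gstp1 changed sign under some such alternative, with Gstm2 at -0.56 with slide as a block. The resveratrol effect on rice minus that on starch was largest for Gsta4, at 0.66 (SE 0.38, interval -0.18 to 1.50, adjusted p = 0.887), and 0.24 without DJ mouse 3. It was above 0 for 6 genes (Gstm1 turned to -0.01 under array median scaling), as it was for 50.7% of all probes, and 0 of 15 probes had an unadjusted p under 0.05, against 6.09% of all probes. Its sign changed under some such alternative for 8 genes, all but Gsta4.

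Within slides the values were few. On slide 1, DJ mouse 1 exceeded the mean of the 3 Ctrl mice by 1.03 for Gsta2 and 0.38 for Gsta3 and differed by -0.06 for Gsta4. On slide 2 the mean of DJ mice 2 and 3 was below that of RS mice 1 and 2 by 1.36 for Gsta2 and 0.91 for Gsta4, with DJ mouse 3 among them. On slide 3 the 3 DJ526 mice differed from RS mouse 3 by 0.12 for Gsta2, 0.00 for Gsta4, -0.06 for Gstm1 and -0.14 for Gstz1. A fit with slide as a block gave Gsta3 differences from Ctrl of 0.53 for RS, 0.38 for DJ and 0.50 for DJ526, with unadjusted p of 0.011, 0.014 and 0.039 and adjusted p of 0.309, 0.374 and 0.399, where the fit without it gave 0.11, 0.10 and 0.09. In that fit Gsta2 differences from Ctrl were 2.38, 1.03 and 2.50, and Gstm2 turned negative (-0.48, -0.15 and -0.78). The slide's part in the differences cannot be told apart from diet for most of these mice.

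**Figure D4:**
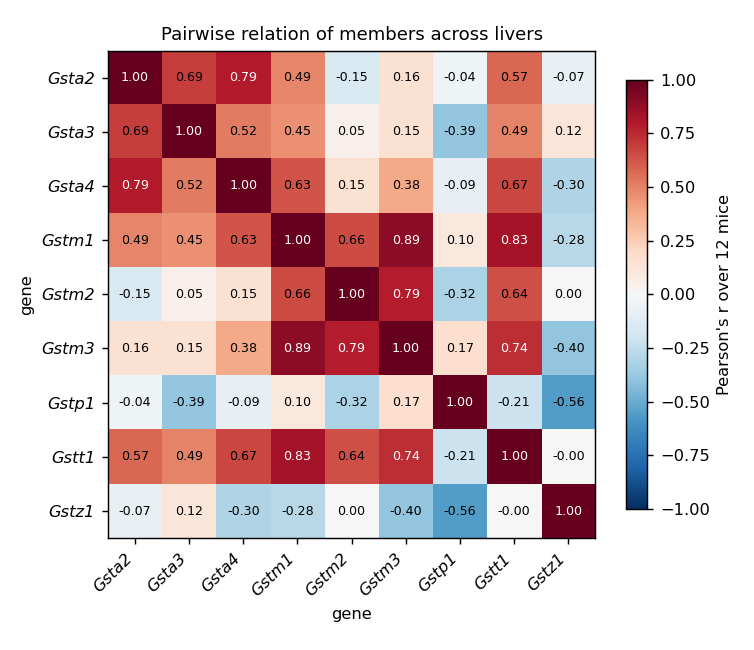
Pearson's r over the 12 mice for each pair of the 9 genes (brightest probes, log2 signal), from -1 in blue to 1 in red. Gstm1 with Gstm3 (0.89), Gstm1 with Gstt1 (0.83), Gsta2 with Gsta4 (0.79), Gstm2 with Gstm3 (0.79) and Gstm3 with Gstt1 (0.74) passed by r after adjustment over 36 pairs.

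Of the 36 pairs, 5 passed by Pearson's r after adjustment and 3 also by Spearman's rho. Beside the pairs of mu and theta genes given above, the pair that passed by r was in the alpha class, where Gsta2 and Gsta4 correlated at r = 0.795 (permutation p = 0.00483, adjusted p = 0.0435) and rho = 0.580 (permutation p = 0.0526, adjusted p = 0.158). Without Ctrl mouse 3 and DJ mouse 3 r was 0.517, so that relation rests on those mice, and it was 0.850 after group means and 0.793 after slide means were subtracted. Among all named genes, the most like Gsta2 was Gm10639, which RefSeq places next to the alpha cluster between Gsta1 and Gsta2, at r = 0.975. Gsta4 was most like Ces2c, a carboxylesterase gene (0.941), Gsta3 like Tagap1 (0.949), Gstm2 like Rmdn2 (0.965), Gstt1 like Amotl1 (0.892) and Gstz1 like Wnt7b (0.916). Each of these was the highest of 15543 values of r over the same 12 mice and was picked for that.

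Gm10639 read 2.35, 1.24 and 0.78 in the Ctrl mice, 3.89, 1.70 and 2.69 in the RS mice, 2.84, 2.28 and 0.36 in the DJ mice and 2.45, 2.83 and 2.59 in the DJ526 mice. RS mouse 1 was again the highest and DJ mouse 3 the lowest. It was 1.31 higher in RS than in Ctrl (SE 0.66, adjusted p = 0.865) and 1.17 higher in DJ526 than in Ctrl (SE 0.66, adjusted p = 0.553).

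The pathway around the transferases gave 0 called genes in any list and comparison. Of 19 other glutathione transferases 16 were measured. Those not measured, Gsta1, Gsta5 and Gsta13, were all the alpha class genes of that list. Gstt4, among the 16, was well above background on only 5 of the 12 arrays. An unadjusted p under 0.05 was found for 1 of the 16 in RS against Ctrl (higher) and for 2 in DJ against Ctrl (both lower). It was also found for 2 each in DJ526 against Ctrl and DJ526 against DJ (all higher). Over all probes the shares at that threshold were 6%, 5.22%, 10.8% and 9.81% in the same order, and the counts of the lists that follow are to be read against them. Mgst3, a microsomal relative, was 0.32 higher in RS (SE 0.12, adjusted p = 0.721) and 0.31 higher in DJ526 (SE 0.12, adjusted p = 0.378) than in Ctrl, with no overlap. Gstt2, a theta enzyme, read 2.42, 2.50 and 2.73 in the DJ mice and 3.32, 2.85 and 2.99 in the Ctrl mice, a difference of -0.51 (SE 0.13, adjusted p = 0.750). In the DJ526 mice it read 2.83, 3.20 and 3.07, which is 0.49 above DJ (SE 0.13, adjusted p = 0.305). The DJ mice were thus below both groups for Gstt2 as they were for Gsta4.

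Of 15 genes of glutathione synthesis and recycling, 2 had an unadjusted p under 0.05 in RS against Ctrl, both lower (6% of all probes), and 1 in each of the other comparisons of single groups. Glo1, which clears methylglyoxal with glutathione, differed by -0.25 in RS against Ctrl (SE 0.07, adjusted p = 0.535), and Gsr, which regenerates glutathione, by -0.21 (SE 0.07, adjusted p = 0.696). Of 12 genes for breakdown and export of conjugates, 3, 3 and 2 had an unadjusted p under 0.05 in RS, DJ and DJ526 against Ctrl, against 6%, 5.22% and 10.8% of all probes. They went both ways, with 2 higher in RS, 2 higher in DJ and 0 higher in DJ526. Of those higher in DJ, Ggt1 was well above background on only 1 of the 12 arrays. Abcc4, a conjugate exporter, differed by 0.92 in RS against Ctrl (SE 0.21, adjusted p = 0.438).

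For the 18 genes of the Nrf2 pathway, medians were -0.11, -0.18 and -0.11 in RS, DJ and DJ526 against Ctrl, where the 9 transferases had 0.14, 0.03 and 0.19. Unadjusted p was under 0.05 for 0, 2 and 1 of them, all lower, among them Hmox1 in DJ (-0.38, SE 0.16, adjusted p = 0.948). The 16 genes of CAR, PXR and AhR with their classic targets had 5, 3 and 3 at that threshold against Ctrl, of which 5, 2 and 2 were higher, against 6%, 5.22% and 10.8% of all probes. Cyp1a1, the best-known AhR target, was 1.19, 1.25 and 1.19 above Ctrl in RS, DJ and DJ526 (SE 0.39 each, adjusted p = 0.671, 0.816 and 0.306), against the same Ctrl mice. Cyp1a2 was 0.79 above Ctrl in RS and 0.77 in DJ526 (SE 0.23 each, adjusted p = 0.583 and 0.266). Arnt, of the same list, went the other way in DJ against Ctrl, at -0.40 without overlap (SE 0.10, adjusted p = 0.693). In DJ526 against DJ it differed by 0.32, also without overlap (SE 0.10, adjusted p = 0.378). Cyp3a11, a target of PXR, differed by -0.88 in DJ526 against DJ (SE 0.26, adjusted p = 0.350).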

How the data were processed

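Liver RNA of 12 mice was labelled with Cy3 and hybridised to Agilent Mouse Gene Expression 4X44K v2 arrays, and the scans were quantified by the authors with Feature Extraction. The deposited scanner files hold spot intensity after background subtraction (processed signal). A deposited table of normalized intensity equals that signal times 1 factor per array (0.959 to 1.08) for 99.9% of probes. Here the processed signal of non-control spots without outlier flags was averaged per probe, converted to log2 and set relative to the array's 75th percentile. Probes were named by their accession through RefSeq (27508 of 39429, 69.8%).

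Groups came from the sample labels. limma 3.58.1 (R 4.3.3) fitted 1 mean per group over all 12 arrays with a variance trend, after tests on simulated data, and p-values were adjusted over all probes. Correlations used permutations of all 12 arrays, across groups and slides, in numpy 2.4.6 with ranks from scipy 1.17.1. Precision is limited by 3 mice per group and by the spread between them. The member genes, pathway lists and tests were chosen with earlier results of these data known. Every member was named with every probe. Of each pathway list, up to 2 genes with the smallest unadjusted p were named, among those whose groups did not overlap and whose brightest probe exceeded background on all arrays compared, per comparison, and for each member the 1 gene with the highest r. Gstm5, Gstm6 and Gstm7 were added as mu class relatives after results were seen, as were Gstt3 and Gstp3 from other classes. Markers of 8 cell types were read. Alternatives changed background correction, scaling, filter, variance prior, slide or replicate block, samples, test, the RS and DJ labels and single arrays. The SAM q-values, Z ratios, qRT-PCR, blood and behaviour data of the study were not used here.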

Additional observations from a re-analysis of the deposited data

How the results depend on the processing

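The count of called transferase probes was 0 in each of the 8 comparisons under each of 180 alternative values, and the smallest adjusted p of the 9 genes was 0.150 under any alternative against 0.405 as reported. Counts at an unadjusted p under 0.05 lay between 0 and 5 of 15 probes, the 5 under quantile normalization and the deposited table in resveratrol against none, where 2 were reported, and the shares of all probes under these settings and as reported were 9.8%, 11.9% and 10.1%. The methods' t-test gave 2, 0, 1, 1 and 1 probes at its unadjusted threshold for RS, DJ and DJ526 versus Ctrl and for DJ526 versus DJ and RS, against 5.01%, 4.62%, 12.8%, 10.8% and 6.13% of all probes, and 0 of the 15 after Benjamini-Hochberg adjustment. In rice against starch and sucrose and in resveratrol against none it gave 0 and 2, against 3.71% and 9.68%. It was not run for the difference of effects, and the fit of single groups was not run for the 3 comparisons that join all groups. Of 1620 log2 values of the genes, 53 moved by more than 1 SD, 28 of them with slide as a block, 12 with RS and DJ exchanged, 3 without DJ replicate 3 and 10 under other settings, and the cause was not tested. With slide as a block the median of all probes was -0.12 in DJ526 against Ctrl, -0.10 in DJ526 against DJ and -0.11 in the difference of effects. Over the whole array, calls in DJ526 against RS were 40 with that block and 3 without it, and calls in DJ526 against DJ were 27 under quantile normalization and 4 as reported. Leaving out 1 array gave 0 to 173 calls in DJ526 against Ctrl (2 as reported), 0 to 107 in DJ526 against DJ and 0 to 28 in DJ526 against RS, the highest each time without RS replicate 3. Without RS replicate 1 these counts were 8, 7 and 7, and without DJ replicate 1 they were 0, 23 and 15. The difference of effects had 17 calls with slide as a block and 19 without DJ replicate 1, and DJ against Ctrl had 8 with that block, where 0 were reported for both.

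The replicate block gave 0 called probes in each of the 8 comparisons. Correlations of the deviations of mice with the same number ran from -0.354 to 0.407 over 18 pairs, against -0.422 to 0.444 for mice with other numbers. Of 12 arrays, 6 were most like an array of their own number. These values do not settle whether mice were paired by number.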

Other observations

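The mouse numbered 1 was the lowest of its group for Gstm2 in all 4 groups, on 2 of its 3 probes. The same held for Gstm5, which read 0.98, 1.19, 0.92 and 1.01 in the mice numbered 1 of Ctrl, RS, DJ and DJ526, and for Gstm7, which read -0.13, -0.20, 0.19 and 0.15 in them. This was chosen after the values were seen, and the labels give the number no meaning beyond telling the mice apart. For Gsta2 and Gsta4 the mouse numbered 1 was lowest in DJ526 alone.

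Summed marker signal (log2, relative to the 75th percentile) covered the following ranges in the Ctrl, RS, DJ and DJ526 mice. Kupffer cell markers covered 6.15 to 7.04, 5.84 to 6.33, 5.78 to 6.42 and 5.81 to 6.39. Those of liver endothelium covered 5.33 to 5.51, 5.36 to 5.40, 5.16 to 5.53 and 5.42 to 5.53, and those of stellate cells 5.87 to 6.10, 6.00 to 6.36, 5.97 to 6.17 and 6.00 to 6.11. Bile duct markers covered 0.12 to 1.44, 0.55 to 0.94, 0.23 to 0.78 and 0.14 to 0.73, lymphocyte markers 2.04 to 2.27, 2.12 to 2.27, 2.11 to 2.63 and 2.30 to 2.50, and red cell markers 6.66 to 7.28, 6.20 to 6.98, 6.08 to 7.29 and 6.43 to 7.91. Their part in the transferase values was not tested.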
